A study of Mus musculus with 8 samples.

Results

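The genes for the receptors of noradrenaline, dopamine, serotonin, histamine and acetylcholine were followed in SST neurons of the tuberal nucleus (TN), a cell group of the lateral hypothalamus that takes part in feeding. They comprise 42 genes, chosen by symbol from the 35968 genes with matched transcripts, of which 8 encode adrenergic, 5 dopamine, 14 serotonin, 3 histamine and 12 acetylcholine receptors or subunits. In Flow-Seq, a virus made these neurons fluoresce in the living animal, and the fluorescent cells were sorted and sequenced in bulk, with 1 library from each of 4 females and 4 males. All 8 mice were *Sst-Cre* heterozygotes (genotype Ssttm2.1(cre)Zjh/J / +, in which Cre is made from the *Sst* locus) and carried the same virus, AAV2-flex-tdTomato, injected into the TN on both sides, so that cells that had expressed *Sst* turned red. The females were cycling, the males were intact, and the age of the sequenced mice is not given in the sources used here. No unsorted cells and no animal without Cre or virus were analysed here, and sex is the only labelled difference between the groups. The label follows *Sst* and the injection site rather than the nucleus itself, and the study lists viral spread into the neighbouring arcuate nucleus among the limits of its feeding experiments.

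These transmitters reach the hypothalamus mainly from small groups of cells elsewhere in the brain, such as the locus coeruleus for noradrenaline, the raphe nuclei for serotonin and the tuberomammillary nucleus for histamine, and they set arousal, mood and appetite over wide areas. Most of the receptors act through G proteins. Receptors coupled to Gs raise cyclic AMP, those coupled to Gi lower it and open potassium channels, and those coupled to Gq release calcium through phospholipase C. The nicotinic acetylcholine receptors and the 5-HT3 serotonin receptors are instead ion channels built of several subunits. Drugs against many of these receptors change food intake and body weight.

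Estimated counts summed to between 7827943 and 17648108 per mouse. Levels of different genes are compared in TPM, a transcript abundance scaled for transcript length and for the size of the library, and levels of 1 gene between mice in CPM, counts scaled for library size alone with TMM factors. A count of 3, taken as the limit of detection, lay between 0.148 and 0.458 CPM, a limit that covers counting error only. *Sst* itself was listed at 1188 ± 324 TPM (SD, n = 8 mice, lowest 898) and ranked 45th of all genes, beside the GABA-synthesis gene *Gad1* at 243 ± 49.4 TPM. The GABA transporter gene *Slc32a1* had 108 ± 29.0 TPM and the glutamate transporter gene *Slc17a6* 90.5 ± 33.6 TPM. RNA of other cell types was also found. Summed over 8 microglia genes, females 1 to 4 had 1627, 571, 286 and 817 CPM, whereas males 1 to 4 had 652, 3188, 1837 and 3091 CPM. Over 6 oligodendrocyte genes the sum ran from 513 to 2108 in females and from 865 to 1943 in males, and over 7 astrocyte genes from 269 to 841 and from 640 to 936. The sum of 8 general neuron genes (*Snap25*, *Syt1*, *Rbfox3* and others) came to 2375, 2564, 2859 and 2625 CPM for the females and 2251, 1799, 2056 and 1942 CPM for the males, so that every female lay above every male. None of the 56 marker genes tested passed an adjusted p of 0.05 between the sexes by edgeR. Because RNA was pooled over the sorted cells, fewer cells of a type and less RNA per cell cannot be told apart in any value below.

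Receptors for all 5 transmitters were detected, at levels far below those of the neuropeptide. Of the 42 genes, 31 had a mean of at least 1 TPM over the 8 mice and 11 lay under it. Summed over its receptors, acetylcholine had 104 ± 22.8 TPM, histamine 72.5 ± 14.3, serotonin 62.3 ± 12.04, noradrenaline 48.0 ± 14.1 and dopamine 12.6 ± 4.92 TPM (SD, n = 8 mice). The 3 histamine receptor genes thus held 24.3% of the summed receptor TPM, between 22.5% and 27.7% in single mice, and the 5 dopamine receptor genes 4.19%. By coupling, Gi receptors held 39.2%, Gq receptors 29.4%, channel subunits 16.3% and Gs receptors 15.1%.

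**Figure D1:**
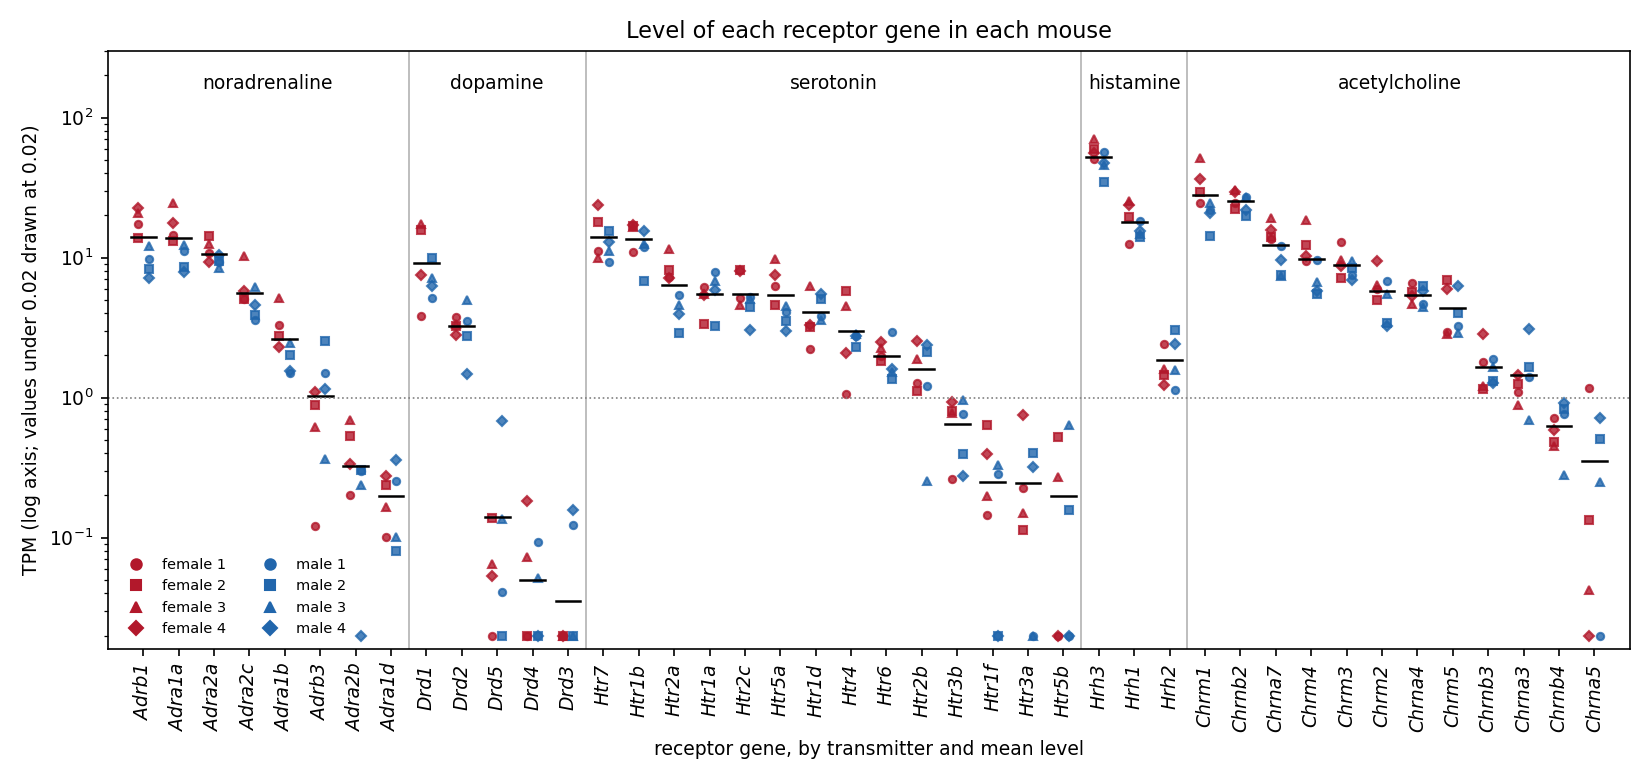
Level of the 42 receptor genes (TPM on a log axis) in each of 4 females (red) and 4 males (blue), grouped by transmitter and ordered by mean within it. The symbol shape gives the mouse, the black bar is the mean over 8 mice, the dotted line marks 1 TPM and values under 0.02 TPM are drawn at 0.02. *Hrh3* stands highest at 52.7 TPM, and *Drd3*, *Drd4* and *Drd5* lie lowest among the means.

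The highest of the 42 was *Hrh3*, the Gi-coupled H3 receptor that also acts as the autoreceptor of histamine neurons, at 52.7 ± 10.7 TPM (SD, n = 8 mice), and it ranked 3376th among all genes. Females 1 to 4 had 69.8, 72.6, 83.2 and 64.4 CPM of *Hrh3*, and males 1 to 4 had 74.7, 46.7, 52.9 and 57.9 CPM. The sexes overlapped, since male 1 lay above all females but 1. *Hrh1*, the Gq-coupled H1 receptor blocked by sedating antihistamines, was the fourth in the order with 17.9 ± 4.68 TPM. It stood at 20.2, 30.5, 26.8 and 28.0 CPM in the females and at 24.8, 23.6, 22.9 and 25.4 CPM in the males, again with overlap. The Gs-coupled *Hrh2* was low, at 1.86 ± 0.681 TPM. Genes for the other side of histamine signaling were also read, with the degrading enzyme gene *Hnmt* at 12.3 ± 2.66 TPM and the synthesizing enzyme gene *Hdc* between 0.804 and 13.7 CPM.

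Among acetylcholine receptors the M1 muscarinic gene *Chrm1*, which couples to Gq, came first with 27.9 ± 11.5 TPM, followed by the nicotinic beta2 subunit gene *Chrnb2* with 25.3 ± 3.71 TPM and the alpha7 gene *Chrna7* with 12.4 ± 4.08 TPM (SD, n = 8 mice). On protein-coding transcripts alone the order of the latter pair turned, with 10.05 TPM for *Chrnb2* and 11.8 TPM for *Chrna7*. All 5 muscarinic genes were tested, and their means ran from 4.39 TPM in *Chrm5* to that of *Chrm1*. *Chrna4*, whose product joins that of *Chrnb2* in the most common heteromeric nicotinic receptor of the brain, had 5.42 ± 0.785 TPM. *Chrna3* and *Chrnb3* lay at 1.44 and 1.64 TPM, and *Chrnb4* and *Chrna5* at 0.629 and 0.353 TPM. Of 9 further nicotinic subunit genes outside the 42, only *Chrnb1* had enough counts to be tested, and *Chrna9* was listed at 0 in all 8 mice. The acetylcholinesterase gene *Ache*, whose enzyme ends the signal at the synapse, had 110 ± 14.7 TPM.

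*Chrnb2* did not separate the sexes, the females having 85.4, 81.4, 90.2 and 98.2 CPM and the males 94.9, 75.2, 94.7 and 79.1 CPM (log2 fold change 0.05, standard error 0.10). This gene-level value hides a split between transcripts, described further on.

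The serotonin receptors were many and of moderate level. *Htr7*, coupled to Gs, led with 14.0 ± 4.91 TPM and *Htr1b*, a Gi-coupled receptor found on many axon terminals, followed with 13.5 ± 3.63 TPM. On protein-coding transcripts alone this order turned, with 10.4 TPM for *Htr7* and 13.5 TPM for *Htr1b*. *Htr7* stood at 16.4, 25.4, 13.9 and 33.2 CPM in the females and at 15.3, 22.3, 18.0 and 19.4 CPM in the males, and *Htr1b* had 23.2, 31.6, 25.9 and 27.0 against 25.2, 19.2, 24.0 and 30.2 CPM. In neither gene did the sexes separate, and female 4 alone set the upper end of *Htr7*. *Htr2a*, *Htr1a*, *Htr2c*, *Htr5a* and *Htr1d* lay between 4.11 and 6.38 TPM, and *Htr4*, *Htr6* and *Htr2b* between 1.59 and 3.00 TPM. *Htr2c*, the X-linked Gq-coupled receptor through which serotonin curbs feeding, had 5.45 ± 1.76 TPM. The ion channel genes *Htr3a* and *Htr3b* and the genes *Htr1f* and *Htr5b* all had means under 1 TPM.

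Noradrenaline receptors were led by *Adrb1*, the Gs-coupled beta1 receptor, at 14.0 ± 5.77 TPM, and *Adra1a*, the Gq-coupled alpha1A receptor, at 13.7 ± 5.36 TPM, with the Gi-coupled *Adra2a* at 10.5 ± 1.95 TPM (SD, n = 8 mice). *Adra2c* and *Adra1b* followed at 5.56 and 2.62 TPM, so that each of the 3 kinds of G protein coupling was covered by at least 1 adrenergic receptor gene over 10 TPM. *Adrb3*, known from fat cells, had 1.03 TPM, and *Adra1d* and *Adra2b* lay under 1 TPM. On protein-coding transcripts alone *Adra1a* came first, with 13.2 TPM, and *Adrb1* had 12.2 TPM. Dopamine receptors were fewer. *Drd1*, coupled to Gs, stood at 7.55, 9.93, 17.9 and 11.2 CPM in the females and at 7.90, 4.22, 8.58 and 4.66 CPM in the males, and the Gi-coupled *Drd2* had 5.22, 4.73, 4.10 and 3.78 against 4.97, 4.12, 6.79 and 2.14 CPM. Both genes overlapped between the sexes, *Drd1* through its lowest female alone. The *Drd1* mean of 9.11 TPM overstates its coding level, because a non-coding transcript of the gene with 6.20% of its counts carried 52.7% of its TPM, and the protein-coding transcripts summed to 4.31 TPM. *Drd3*, *Drd4* and *Drd5* had between 0.0350 and 0.140 TPM.

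The order of these levels was not sharp. In none of the 41 pairs of neighbours in the order did the 8 mice of the upper gene all lie above those of the lower. *Hrh3* exceeded *Chrm1* within each of the 8 mice, whereas *Chrm1* exceeded *Chrnb2* in 4 of them. Leaving out non-coding transcripts lowered the number of genes at 1 TPM or more from 31 to 30, and 28 genes reached 1 TPM in every mouse.

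Whether the receptor genes differ between females and males was asked in 1 fit over all genes. Of the 42, 32 had enough counts to be tested. The other 10 (*Adra1d*, *Adra2b*, *Adrb3*, *Drd3*, *Drd4*, *Drd5*, *Htr1f*, *Htr3a*, *Htr5b* and *Chrna5*) had between 0 and 27 counts in a mouse, and a difference in them was not detectable at this depth. 1 receptor gene, *Adrb1*, passed an adjusted p of 0.05, higher in females (quasi-likelihood test of edgeR, Benjamini-Hochberg adjustment over all genes tested), where 0.158% of the 15194 genes tested passed in either direction and 0.112% were higher in females. Of the 32, 26 had a log2 fold change above 0, that is a higher level in females, against 49.4% of all genes. Their median log2 fold change was 0.24 (range -0.61 to 1.01), while that of all genes was -0.004. In 6 of the 32, every female lay above every male, as in 6.48% of all genes tested, and in none did every male lie above every female, as in 3.94%. At an unadjusted p under 0.05 stood 8 receptor genes, all higher in females, a share of 25.0% where 9.86% of all genes were higher in females at that level and 20.5% passed it in either direction. Genes of 1 pathway are not independent of each other, and no test was made of the 32 as a set.

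*Adrb1* (ENSMUSG00000035283.5) encodes the beta1 adrenergic receptor, which responds to noradrenaline and adrenaline by raising cyclic AMP and is best known for speeding the heart. In mm10 the gene spans chromosome 19, 56722199 to 56733113, + strand. Females 1 to 4 had 26.1, 22.9, 28.6 and 28.3 CPM of it, and males 1 to 4 had 13.1, 12.6, 14.8 and 12.2 CPM. The lowest female thus stood well above the highest male, and the spread within each sex was small. The means were 26.5 ± 2.64 and 13.2 ± 1.16 CPM (SD, n = 4 mice each), a fold of 2.01 (log2 fold change 1.01, standard error 0.12, adjusted p = 0.0178 by edgeR). These values rest on 97 to 580 counts per mouse, of which 98.3% fell on the protein-coding transcript. The log2 fold change was similar in each fit that left out 1 mouse, between 0.96 and 1.07, but the adjusted p rose above 0.05 without female 3, female 4, male 2, male 3 or male 4, to at most 0.0904 by edgeR. It was also above 0.05 in block 1 of the deposited values (log2 fold change 0.80, adjusted p = 0.0819 by edgeR) and not in block 2 (1.19, adjusted p = 0.00856). On the log2 scale the SD of *Adrb1* was 0.247 between the 2 blocks of a mouse, larger than the 0.135 between mice of a sex. Per 1000 CPM of the neuron genes, *Adrb1* stood at 10.99, 8.94, 10.01 and 10.8 CPM in the females and at 5.82, 6.98, 7.21 and 6.29 CPM in the males, still without overlap.

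**Figure D2:**
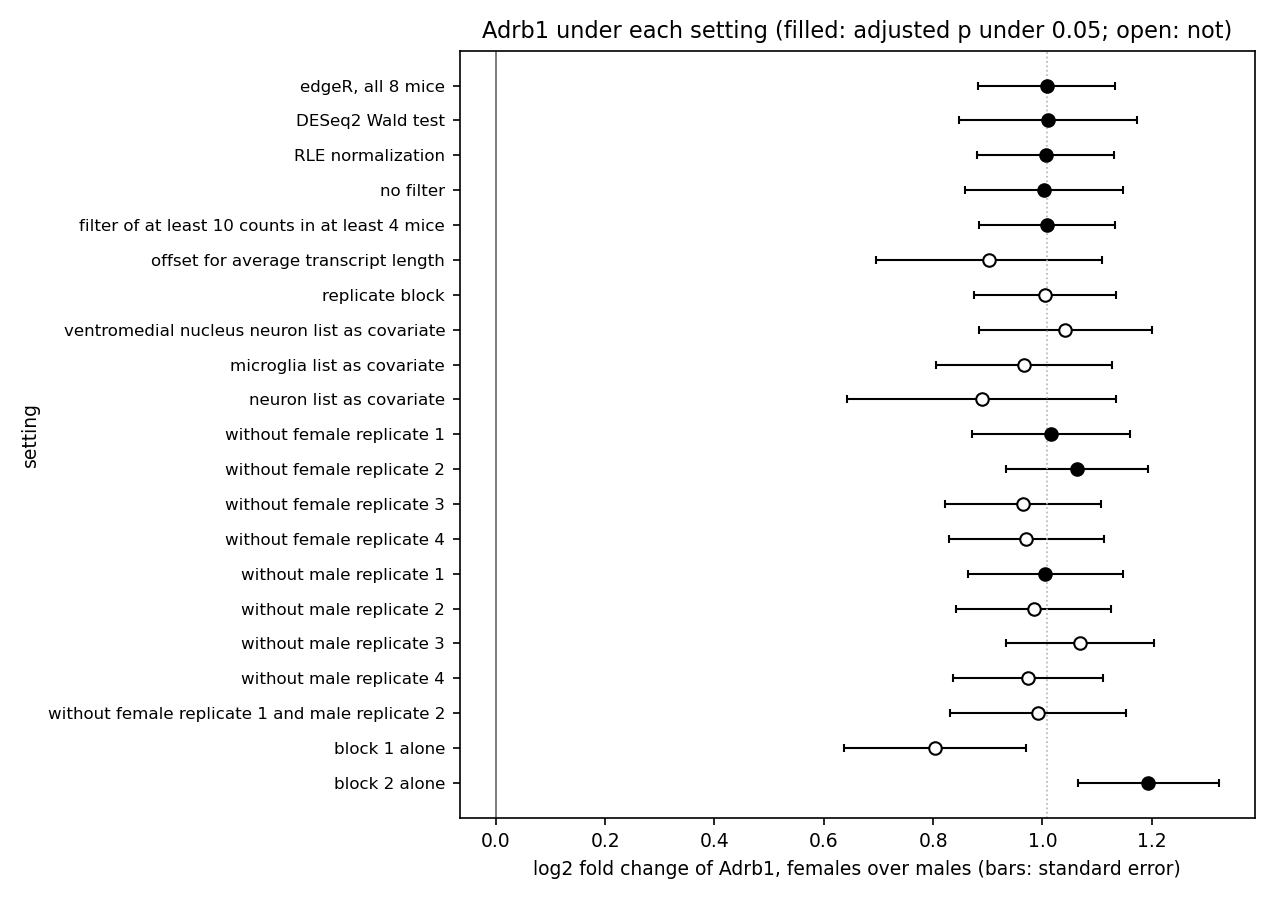
Log2 fold change of *Adrb1*, females over males (horizontal axis, bars give the standard error), in the edgeR fit of all 8 mice and in 20 other settings, with filled points where the adjusted p was under 0.05. All points lie between 0.80 and 1.19, and 8 of the 20 other settings are filled.

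The other 5 genes without overlap were *Htr2a*, *Chrm1*, *Htr5a*, *Adra1a* and *Chrna7*, none of which passed the adjusted threshold. *Htr2a* (ENSMUSG00000034997.5), the Gq-coupled 5-HT2A receptor on which classical hallucinogens act, stood at 23.1, 27.5, 32.5 and 22.0 CPM in the females and at 17.8, 9.99, 14.6 and 13.2 CPM in the males. It had the lowest adjusted p after *Adrb1* (log2 fold change 0.92, standard error 0.20, adjusted p = 0.0798 by edgeR). Of the males, male 1 stood highest and nearest to the females. *Chrm1* (ENSMUSG00000032773.9) stood at 65.3, 70.6, 114 and 79.4 CPM in the females and at 50.4, 36.8, 52.2 and 51.1 CPM in the males (log2 fold change 0.79, standard error 0.19). Female 3, also the most deeply sequenced mouse, stood highest in *Adrb1* and in each of these 5 genes. The same mouse had the highest neuron gene sum, 2859 CPM, and the lowest microglia gene sum, 286 CPM. *Adra1a* (ENSMUSG00000045875.13) stood at 34.3, 30.2, 47.8 and 37.3 CPM in the females and at 24.5, 20.2, 26.7 and 17.6 CPM in the males (log2 fold change 0.75, standard error 0.18). In *Adra1a* the gap between the lowest female and the highest male was small, 30.2 against 26.7 CPM.

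*Htr5a* (ENSMUSG00000039106.6), a Gi-coupled serotonin receptor, stood at 19.4, 14.8, 26.1 and 22.1 CPM in the females and at 12.6, 11.6, 13.9 and 9.70 CPM in the males (log2 fold change 0.79, standard error 0.19). *Chrna7* (ENSMUSG00000030525.8), whose subunit forms a calcium-permeable channel by itself, stood at 15.7, 17.0, 19.0 and 17.2 CPM in the females and at 14.0, 9.44, 8.40 and 11.5 CPM in the males (log2 fold change 0.67, standard error 0.18). In both genes the highest male came close to the lowest female, at 13.9 against 14.8 CPM and at 14.0 against 15.7 CPM. The adjusted p of *Chrm1*, *Adra1a*, *Htr5a* and *Chrna7* lay between 0.0930 and 0.113 by edgeR. All 6 genes also did not overlap in TPM, where 6.11% of all genes had every female above every male. With DESeq2's Wald test, which called 7.13% of the genes it tested, these 6 and no other receptor gene passed an adjusted p of 0.05, and 2 or 3 receptor genes passed in edgeR without female 1 (*Adrb1* and *Chrm1*) or without male 1 (*Adrb1*, *Htr2a* and *Chrna7*). Leaving out 1 of these mice took the share of all genes called to 2.67% and 2.65%.

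**Figure D3:**
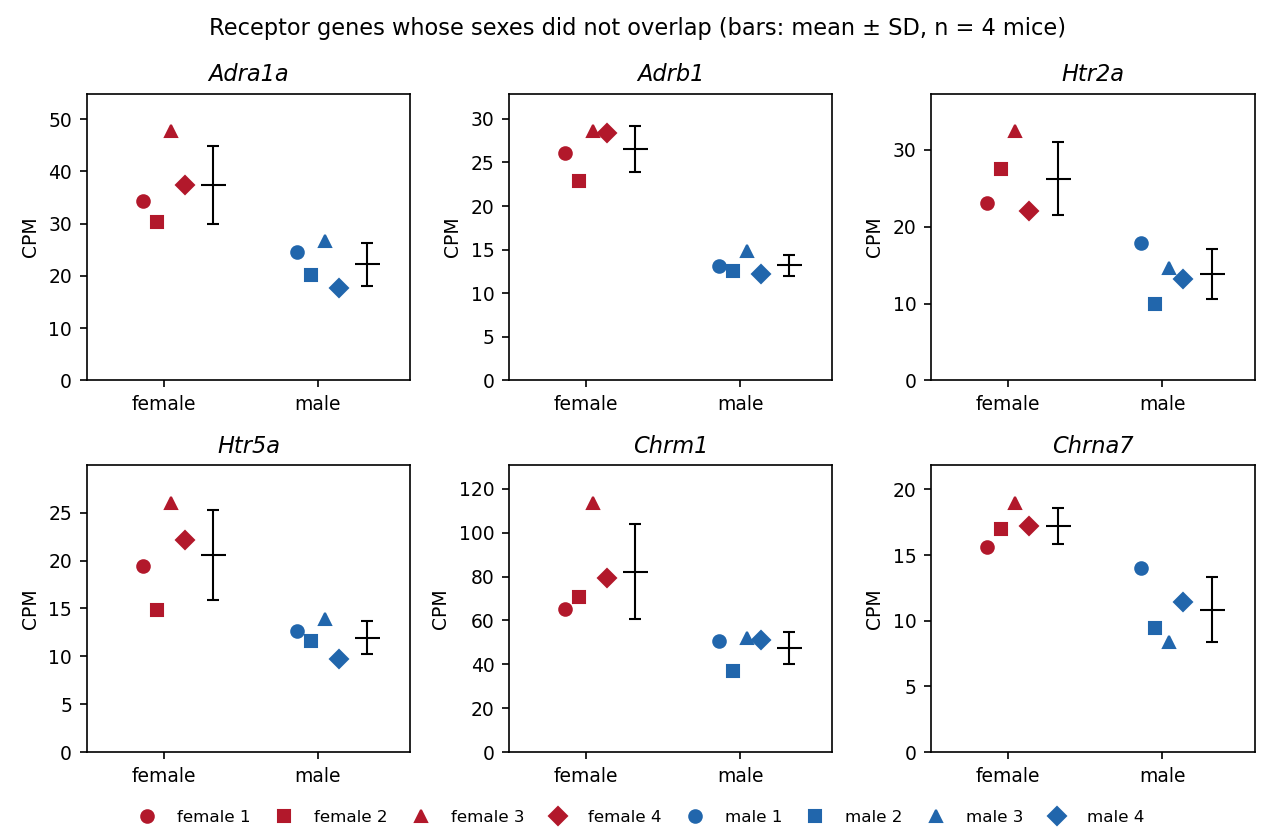
CPM of the 6 receptor genes in which all 4 females (red) lay above all 4 males (blue), with the mean ± SD of each sex beside the points and a separate vertical axis from 0 for each gene. The lowest female and the highest male stand at 22.9 and 14.8 CPM in *Adrb1*, and close together in *Htr5a* and *Chrna7*.

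The other 26 genes tested overlapped between the sexes. *Drd1* and *Chrm4*, the Gi-coupled M4 receptor, had log2 fold changes of 0.88 (standard error 0.33) and 0.80 (0.25), as large as those of the separated genes but with a wider spread, and adjusted p-values of 0.194 and 0.150 by edgeR. The 6 genes with a lower level in females were *Chrna3*, *Chrnb4*, *Hrh2*, *Htr1a*, *Chrna4* and *Drd2*, with log2 fold changes from -0.61 to -0.03 and no adjusted p under 0.484 by edgeR. *Chrna3* and *Chrnb4*, whose products form the ganglionic nicotinic receptor and whose genes lie next to each other on chromosome 9, were the lowest in this order, at -0.61 ± 0.47 and -0.42 ± 0.45 (log2 fold change ± standard error), with 6 to 38 counts per mouse. The serotonin receptor gene *Htr1a* had a log2 fold change of -0.29 ± 0.26. Intervals of this width leave room for differences of either sign in most of these genes.

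By coupling, all 9 Gq-coupled genes tested stood higher in females (median log2 fold change 0.41), and 3 of them (*Htr2a*, *Chrm1* and *Adra1a*) did not overlap. Of the 10 Gi-coupled genes 8 were higher in females (median 0.24), of the 6 Gs-coupled genes 5 (median 0.29) and of the 7 channel subunit genes 4 (median 0.05). By transmitter, the 5 adrenergic genes tested were all higher in females, with a median of 0.70, as were 10 of 11 serotonin, 8 of 11 acetylcholine, 2 of 3 histamine and 1 of 2 dopamine receptor genes. The difference between these groups was not tested. Summed over all 42 genes, receptor TPM was 284 to 413 in females and 221 to 275 in males. The sums of the adrenergic genes (50.7 to 74.7 against 33.2 to 42.3 TPM) and of the acetylcholine receptor genes (105 to 145 against 73.6 to 97.0 TPM) did not overlap either. Those of serotonin (54.2 to 81.3 against 48.2 to 57.0 TPM), histamine (65.6 to 97.9 against 51.9 to 76.3 TPM) and dopamine receptor genes (7.56 to 20.8 against 8.62 to 12.6 TPM) overlapped. These TPM sums carry no TMM factor, include non-coding transcripts and were not set beside sums of other genes. *Lars2* alone took between 9.34% and 34.4% of a mouse's counts, and the TPM of other genes depends on that share.

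**Figure D4:**
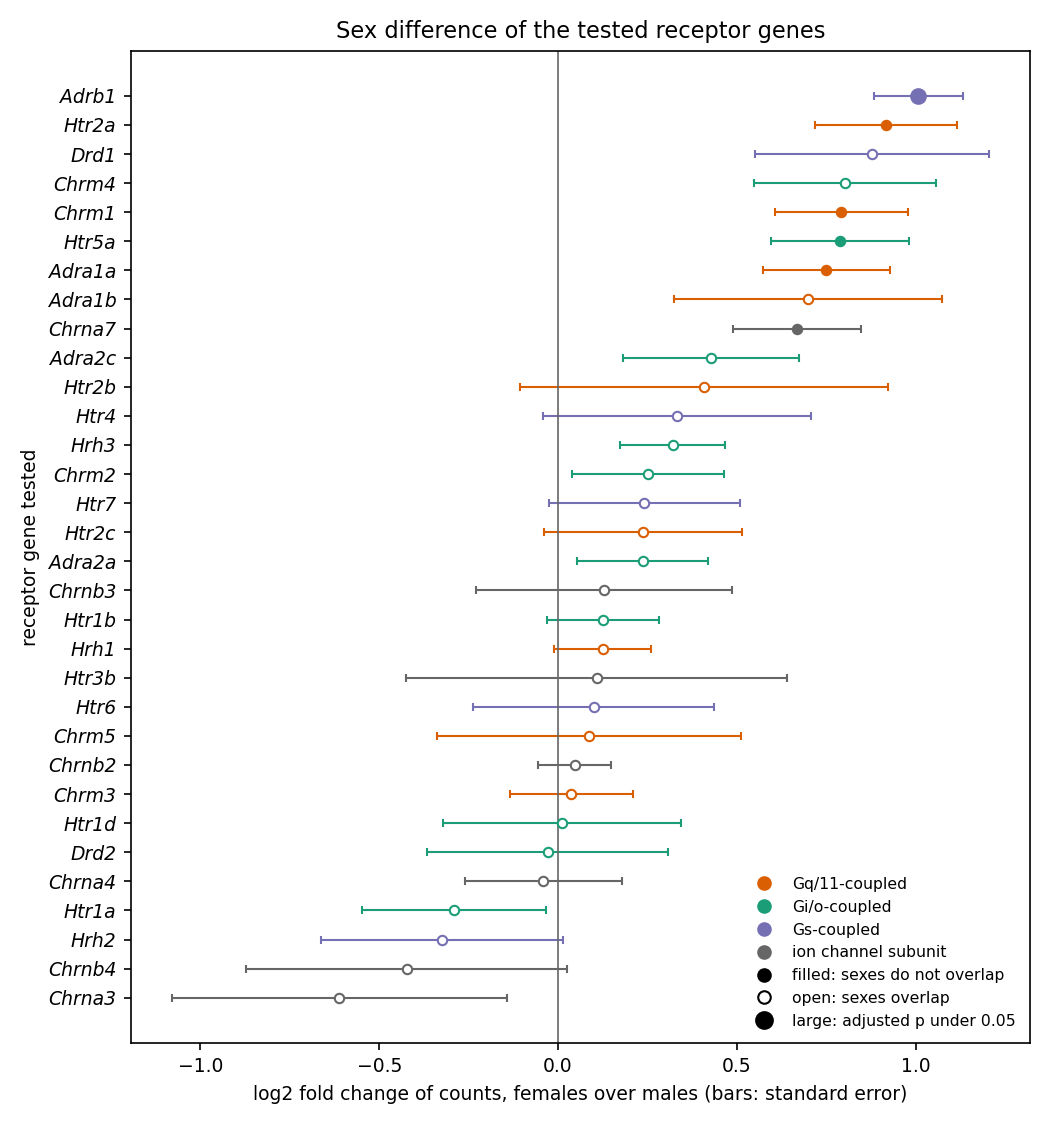
Log2 fold change of counts, females over males, for each of the 32 receptor genes tested (points, with bars for the standard error), colored by coupling. Points to the right of 0, 26 of 32, are higher in females, filled points mark the 6 genes without overlap and the large point is *Adrb1* with an adjusted p under 0.05.

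Marker genes of neurons and glia leaned in opposite directions with sex in the same samples. None passed the adjusted threshold, and whether the makeup of the sorted cells differed was not tested. All 8 neuron genes tested stood higher in females, by 0.008 (*Elavl4*) to 0.68 (*Rbfox3*) on the log2 scale. Their median was 0.23, and that of the receptor genes was 0.24. All 8 microglia, 7 astrocyte and 6 oligodendrocyte genes were lower in females, with medians of -1.42, -0.77 and -0.76. Of the 6 separated receptor genes, 4 (*Adrb1*, *Htr2a*, *Chrm1* and *Chrna7*) still did not overlap when their CPM was divided by that of the neuron genes, while *Adra1a* and *Htr5a* did. Over all 32 receptor genes these 4 were the ones with every female above every male after that division, as were 0.810% of all genes tested, and *Chrnb2* had every male above every female, as had 27.5% of all genes. With the mean of the microglia genes as a covariate 22 of 32 receptor genes were higher in females and *Adrb1* kept a log2 fold change of 0.97 ± 0.16 (adjusted p = 0.106 by edgeR). A fit with the mean of the neuron genes as covariate was added once the data had been seen. In it 18 of 32 were higher in females with a median of 0.08, *Htr2a* had 0.26 ± 0.27 and *Adrb1* 0.89 ± 0.25 (adjusted p = 0.742 by edgeR). A list that separates the sexes leaves such a fit little information on sex, and it called 3 of all genes. Genes of the ventromedial nucleus, a neighbour of the TN, summed to 121, 156, 104 and 242 CPM in females and 71.5, 69.2, 89.6 and 144 CPM in males. With their mean as a covariate the log2 fold change of *Adrb1* was 1.04 ± 0.16 (adjusted p = 0.0610 by edgeR). The arcuate neuron genes summed to 350, 223, 217 and 108 CPM in females and 550, 284, 446 and 321 CPM in males. The sexes overlapped, since female 1 lay above males 2 and 4. Of the 6 arcuate genes tested, 4 had lower levels in females, among them *Npy* (log2 fold change -1.15) and *Pomc* (-1.11). The other 2, *Tac2* (1.41) and *Ghrh* (0.63), had higher levels in females. The median of the 6 was -0.77, and their part in the receptor values was not tested.

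Genes of the proteins that carry the receptors' signal were also read. The Gs alpha gene *Gnas* had 2552 ± 433 TPM and the Go alpha gene *Gnao1* 528 ± 118 TPM (SD, n = 8 mice). The adenylyl cyclase genes were led by *Adcy6* at 106 TPM and the phospholipase C genes by *Plcb1* at 86.7 TPM. *Kcnj3* and *Kcnj9*, subunits of the potassium channels that Gi-coupled receptors open, had 31.4 and 30.3 TPM, and *Rgs4* and *Rgs2*, whose products shorten G protein signals, 231 and 158 TPM. *Grk2* and *Arrb2*, which silence active receptors, had 173 and 83.3 TPM. Of 83 genes in 9 lists of this kind, chosen with earlier results of these data known, 68 were tested and 1 passed an adjusted p of 0.05, higher in females. It was *Lypd6b*, which encodes a small protein that binds nicotinic receptors and alters their currents. *Lypd6b* stood at 21.1, 20.8, 28.6 and 21.6 CPM in the females and at 11.1, 8.98, 8.76 and 7.30 CPM in the males (log2 fold change 1.35, standard error 0.17, adjusted p = 0.0202 by edgeR). The sexes were far apart in this gene. In the same list the chaperone genes *Tmem35a* and *Ric3*, which help nicotinic receptors to the surface, had log2 fold changes of -0.01 and 0.26.

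Genes of the enzymes that make these transmitters were mostly low. *Th* and *Ddc*, the first enzymes of dopamine synthesis, had 22.7 ± 5.53 and 39.9 ± 8.38 TPM, whereas *Dbh*, *Pnmt*, *Tph1*, *Tph2* and *Chat* had means between 0.169 and 0.983 TPM and too few counts to be tested. The uptake transporter genes *Slc6a2*, *Slc6a3* and *Slc6a4* had 0.0672, 1.33 and 0.152 TPM. *Maob*, whose enzyme breaks down monoamines, had 24.9 TPM. The 13 transporter and degrading enzyme genes had a median log2 fold change of -0.01 over the 11 tested, against 0.24 in the receptor genes. Medians of the other lists ran from 0.05 (receptor kinases and arrestins) to 0.49 (further nicotinic subunits, 1 tested). Among them were 0.24 in the potassium channel subunits, 0.22 in the adenylyl cyclases and phospholipases C and 0.20 in the regulators of G protein signaling.

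Transcripts of a receptor gene need not all encode the receptor. In 28 of the 32 tested genes over 90% of the counts fell on transcripts annotated as protein coding, and *Adra1b*, *Htr7*, *Hrh2* and *Chrnb2* fell short. *Chrnb2* (ENSMUSG00000027950.7, chromosome 3, 89746195 to 89764632 on the - strand) stood lowest, with 39.1%. Its non-coding transcript Chrnb2-202 took 606, 375, 1219 and 581 estimated counts of the females, and 768, 4.59, 800 and 458 of the males. The full-length coding transcript Chrnb2-201 took 140, 139, 516 and 470 of the females, and 348, 773, 242 and 141 of the males. In 7 of the 8 mice most counts thus went to the non-coding form, and in male 2 almost all went to the coding form at an unremarkable total. Both transcripts share 6112 bases up to their 3′ end, 99.5% of Chrnb2-202, so that reads from this stretch do not tell them apart. Before it Chrnb2-201 has 287 bases of its own and Chrnb2-202 has 33, shown because they set the non-coding form apart, at chr3:89763369-89763401 (mm10, - strand):
Chrnb2-202 first bases: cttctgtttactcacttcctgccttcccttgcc

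**Figure D5:**
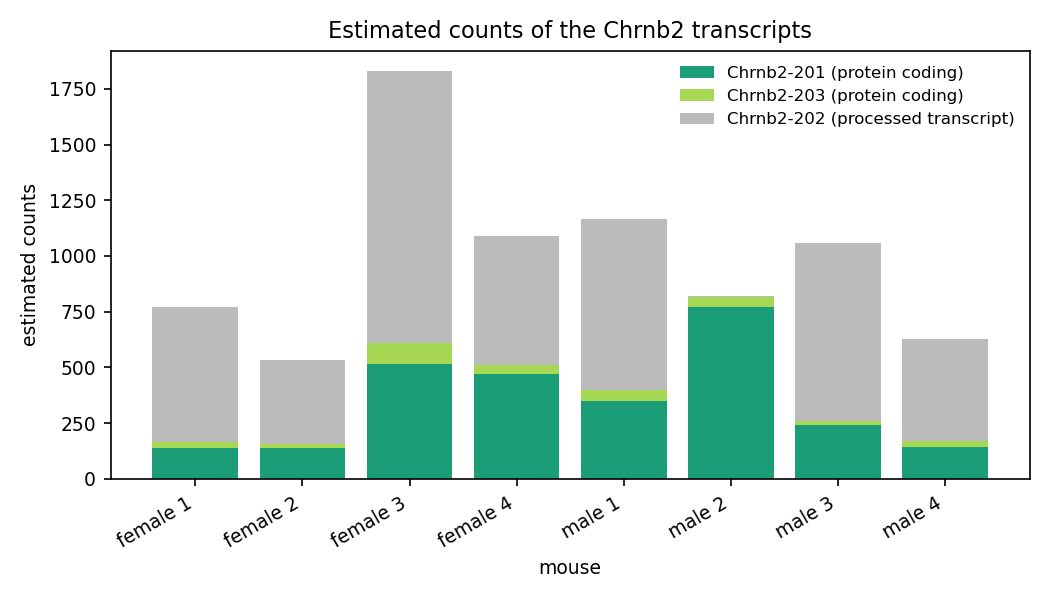
Estimated counts of the 3 *Chrnb2* transcripts in each mouse, stacked, with protein-coding transcripts in green and the non-coding Chrnb2-202 in grey (counts are not scaled for depth). Grey takes most of the bar in every mouse but male 2, where it holds 4.59 counts.

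Exons of 10 of the 42 genes overlap exons of a gene on the opposite strand and none those of a gene on the same strand. The libraries came from a stranded kit, and whether the counting used strand is not given in the sources used here. For *Chrnb2* the partner is *Adar*, which covers 1365 of its exonic bases and had 119 TPM, and for *Htr2b* it is *Psmd1* (252 bases, 116 TPM), so that reads of these 2 pairs may be mixed. *Hrh3*, *Htr1b* and *Chrm1* overlap opposite-strand genes over 349, 852 and 329 bases. *Adrb1*, *Htr2a*, *Adra1a*, *Htr5a* and *Chrna7* overlap none. Sequence shared with other genes on the same strand was slight, at most 2.31% of the 31-base stretches of a gene.

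The stretches before the start of the genes that separated the sexes are shown to let their sequence be read beside their levels, as far as the RefSeq promoter table (GRCm38.p6) holds them. That table has 34 of the 42 genes, with 43 starts, and neither *Adra1a* nor *Chrm1*. In capitals is the GC box, the letters GGGCGG on either strand, and bases that GENCODE puts inside the gene are left out. *Adrb1* lies at chr19:56721867-56722116 (+), *Htr2a* at chr14:74640624-74640839 (+), *Htr5a* at chr5:27841697-27841946 (+) and *Chrna7* at chr7:63212570-63212776 (-), each written 5′ to 3′ along the gene:
Adrb1: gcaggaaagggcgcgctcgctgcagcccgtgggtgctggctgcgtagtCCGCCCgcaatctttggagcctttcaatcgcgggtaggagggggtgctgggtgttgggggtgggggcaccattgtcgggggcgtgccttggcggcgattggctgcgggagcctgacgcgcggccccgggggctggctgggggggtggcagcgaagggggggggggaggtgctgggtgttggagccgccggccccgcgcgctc
Htr2a: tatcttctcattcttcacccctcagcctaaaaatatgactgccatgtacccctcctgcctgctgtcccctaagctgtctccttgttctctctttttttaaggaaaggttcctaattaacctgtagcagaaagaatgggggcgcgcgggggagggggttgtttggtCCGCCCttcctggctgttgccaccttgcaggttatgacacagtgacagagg
Htr5a: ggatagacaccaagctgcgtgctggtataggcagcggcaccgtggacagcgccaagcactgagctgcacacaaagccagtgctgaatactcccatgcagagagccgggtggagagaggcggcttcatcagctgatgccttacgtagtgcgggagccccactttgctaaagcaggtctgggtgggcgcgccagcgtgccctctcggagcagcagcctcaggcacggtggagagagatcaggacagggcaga
Chrna7: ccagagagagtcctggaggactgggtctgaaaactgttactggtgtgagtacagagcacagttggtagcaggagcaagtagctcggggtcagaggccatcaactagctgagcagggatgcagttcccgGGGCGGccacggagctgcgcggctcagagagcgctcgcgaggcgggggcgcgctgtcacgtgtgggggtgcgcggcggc

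The 250 bases before the RefSeq starts of *Adrb1* and *Chrna7* are rich in G and C, at 74.0% and 67.2%. The median over 32851 promoters is 52.4%. *Adrb1* and *Chrna7* hold 24 and 25 CpG pairs there, where the median promoter holds 6. Of the 250 bases, 43 in *Chrna7* and 34 in *Htr2a* lie inside the GENCODE gene, so they are counted here but not printed above. *Htr2a* differs from *Adrb1* and *Chrna7*, with 52.8% and 4 CpG pairs, and *Htr5a* has 62.0% and 13 CpG pairs. The median over the 43 receptor starts is 60.8%. Over both strands of these 250 bases, the GC box occurred in 24 of the 43 receptor starts, a share of 55.8%, and in 32.7% of all promoters. The full estrogen response element, GGTCA and TGACC spaced by 3 bases, occurred in none of the 43 and in 0.0639% of all promoters, and its half-site AGGTCA in 9 of the 43 and in 14.0% of all, in none of the 4 sequences above. The cAMP response element TGACGTCA was in none of the 43 and in 1.55% of all promoters, the AP-1 letters TGANTCA in 4 and 6.75%, and the TATA letters TATAAA in 1 and 12.4%. A match of letters is not a bound site, and elements farther than 250 bases from a start were not searched.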

How the data were processed

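Libraries were made with a stranded total RNA kit from TN SST neurons sorted from 8 mice, 4 of each sex. With kallisto 0.46.2 (mm10) the authors quantified transcripts and deposited estimated counts, which need not be whole and are not normalized, and TPM, a length-corrected signal. The values of each mouse form 2 blocks over the same transcripts, and what the blocks are is not given in the sources used here. Counts were added over the blocks and TPM averaged, so that the design's assumption of a single value per transcript did not hold.

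Of 118489 transcripts, 116728 were matched to genes of GENCODE release M21 by identifier. The 1761 others, with 0.429% to 0.611% of a mouse's counts, were left out. Counts per gene were rounded. The comparison of females with males was fitted with edgeR 4.0.16 under R 4.3.3 (TMM scaling, filterByExpr by sex, quasi-likelihood test, and an adjusted p under 0.05 by Benjamini-Hochberg), sex being the only term and fold changes given as females over males. DESeq2 1.42.0 was an alternative and is the tool the authors named (2.11.40.6, per the submitters' processing notes). Whether the libraries were prepared in batches is not given in the sources used here, and p-values measure the spread between these mice. Simulated counts with set changes served to check the fit. Tables were made with pandas 2.3.3 and numpy 2.4.6, and plots with matplotlib 3.10.9, in Python 3.11.15.

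The receptor genes and lists were chosen with earlier results of these data known. Values in every mouse are given for receptor genes that were called, whose sexes did not overlap, or that had 1 of the 2 highest mean TPM of their transmitter, and list genes are named where called or among the 2 highest, except where a gene is not reported here. *Chrna4*, *Htr2c*, *Chrm4*, *Hnmt*, *Hdc* and the other genes given outside that rule were chosen after their values were seen. Alternatives were DESeq2, another normalization, no filter on low counts, a filter requiring 10 counts in 4 mice, an offset for transcript length, a replicate block, a list mean as covariate, each block alone and leaving out mice.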

Additional observations from a re-analysis of the deposited data

Results flagged for a closer look

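In each sex the gap between the highest or the lowest mouse and the nearest of the others was set against the range of the 4 mice for the 32 tested receptor genes. Of the 64 groups, 3 passed Dixon's critical value of 0.829, and chance alone passes about 1 in 20. *Adra2c*, a Gi-coupled alpha2 adrenergic receptor gene, had 17.4 CPM in female 3, whereas the other females had 9.44 to 10.7 CPM. *Chrm1* had 36.8 CPM in male 2, the lowest of its sex by a wide gap, whereas the other males had 50.4 to 52.2 CPM, and male 2 also had the highest microglia gene sum, 3188 CPM, and the lowest neuron gene sum, 1799 CPM. *Htr2b* had 0.268 CPM in male 3, which rests on 3 counts, whereas the other males had 1.13 to 1.19 CPM.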

How the results depend on the processing

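Over all genes, 24 were called (edgeR's quasi-likelihood test), against 1001 with DESeq2, 13 with an offset for transcript length, 1 with the replicate block and 14 and 3 with the microglia and neuron list means as covariates, between 8 (without male 3) and 415 (without female 1) with 1 mouse left out, and 62 without female 1 and male 2, the mice of their sex with the most microglia RNA. The last setting and the neuron covariate were chosen after seeing the data. Of the receptor genes, 6 were called with DESeq2, 0 to 3 with 1 mouse left out, and 0 with the offset, the replicate block, each of the 3 covariates, block 1 alone or without female 1 and male 2, where edgeR gave between 1 and 10 receptor genes an unadjusted p under 0.05. The lowest was 1 of 32 with the neuron covariate (3.12%, all genes 5.80%) and the highest 10 of 32 with the ventromedial nucleus covariate (31.2%, all genes 20.0%). The labels do not say whether the replicate numbers pair the mice. The correlations of same-numbered females and males were -0.396, -0.156, 0.0356 and 0.0719. Those of unlike-numbered mice ran from -0.268 to 0.416, and with so few mice these values cannot decide on a pairing. In the block fit *Adrb1* had a log2 fold change of 1.00 (adjusted p = 0.148 from edgeR).

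*Adrb1*, *Htr2a*, *Chrm1*, *Htr5a*, *Adra1a* and *Chrna7* were higher in females under all 20 alternatives. These 6 were picked because their sexes did not overlap in these same mice, so leaving out mice or rescaling could hardly turn their sign. The 6 are among 11 of the 28 receptor genes with a value in all 20 that kept their sign throughout. Of the 4 others, which had too few counts in at least 1 of the single blocks, 2 (*Htr2b* and *Chrna3*) kept it where they could be fitted, and 19 of the 32 changed sign in at least 1 alternative. Their log2 fold changes were, with the transcript length offset, -0.32 (*Htr1d*) and 0.015 (*Chrna4*), with the replicate block 0.065 (*Drd2*), and with the ventromedial nucleus covariate 0.39 (*Drd2*), -0.039 (*Htr1b*), -0.19 (*Htr7*), -0.54 (*Chrm5*) and -0.13 (*Chrnb3*). With the microglia covariate they were -0.42 (*Htr1d*), -0.44 (*Htr3b*), -0.044 (*Htr4*), -0.17 (*Htr6*), 0.24 (*Hrh2*), -0.010 (*Chrm3*), 0.12 (*Chrna4*) and -0.046 (*Chrnb2*). With the neuron covariate they were -0.24 (*Drd1*), -0.12 (*Htr1b*), -0.25 (*Htr1d*), -1.15 (*Htr3b*), -0.011 (*Htr4*), -0.69 (*Htr6*), -0.090 (*Hrh1*), 1.01 (*Hrh2*), -0.17 (*Hrh3*), -0.20 (*Chrm2*), 0.16 (*Chrna4*), -0.26 (*Chrnb2*), -0.24 (*Chrnb3*) and 0.063 (*Chrnb4*). In block 1 they were -0.057 (*Chrm5*), 0.21 (*Chrna4*) and -0.082 (*Chrnb3*), and in block 2 0.10 (*Drd2*), -0.19 (*Htr1d*) and -0.035 (*Chrm3*). With 1 mouse left out, or female 1 and male 2 together, they ran from -0.25 to 0.24 (*Drd2*), -0.25 to 0.35 (*Htr1d*), -0.073 to 0.38 (*Htr2c*), -0.10 to 0.41 (*Htr3b*), -0.027 to 0.41 (*Htr6*), -0.031 to 0.45 (*Htr7*), -0.092 to 0.13 (*Chrm3*), -0.22 to 0.36 (*Chrm5*), -0.19 to 0.11 (*Chrna4*), -0.013 to 0.098 (*Chrnb2*) and -0.20 to 0.32 (*Chrnb3*). Why a value changed sign was not tested. No filter, a filter of 10 counts in 4 mice and another normalization left the count of receptor genes called at 1, and TPM in place of CPM left that of genes without overlap at 6. Without a filter the receptor genes at an unadjusted p under 0.05 were 9 in place of 8.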

Other observations

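The values of a mouse came in 2 blocks of unstated origin. In 24 of the 32 tested receptor genes the SD between mice was larger than that between blocks, with medians of 0.349 and 0.223 on the log2 scale. *Adrb1* was not among the 24, with an SD of 0.135 between mice of a sex and 0.247 between blocks.

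Several genes around the receptors had adjusted p-values under 0.10 without passing 0.05 in edgeR's quasi-likelihood test, and these were picked after their values were seen. *Rgs8* and *Rgs14*, of the G protein signal regulators, had log2 fold changes of 0.72 and 0.80 (adjusted p = 0.0690 and 0.0822 from edgeR), and the adenylyl cyclase genes *Adcy2* and *Adcy1* 0.49 and 0.63 (0.0798 and 0.0831). *Gnai1* and *Gnai2*, which encode the inhibitory G protein alpha subunits, had lower values in females, -0.46 and -0.45 (adjusted p = 0.0849 and 0.0943 from edgeR). The Gq alpha gene *Gnaq* had 189 to 199 CPM in females and 166 to 193 CPM in males.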
